A study of Mus musculus with 5 samples.

Results

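The genes described here are 10 genes of the integrated stress response that runs through the transcription factor ATF4: Trib3, Atf4, Atf3, Atf5, Ddit3, Ddit4, Asns, Chac1, Psat1 and Phgdh. They were taken by symbol from the deposited array table, each had 1 probe set assigned to that symbol alone, and all 10 were among the 14979 genes tested. The tested cultures, called Grhl2 shRNA, were MLE-15 cells carrying 1 hairpin against Grhl2, an epithelial Grainyhead-like transcription factor (3 arrays), and the control cultures carried a non-silencing hairpin (2 arrays). The MLE-15 line was derived from mouse lung tumours driven by a transgene, the SV40 large tumour antigen under a human surfactant protein C promoter, so every culture carries that oncogene. Both groups also shared the lentivirus with its GFP reporter, 16 h of infection at a multiplicity of 50 with 5 µg/ml polybrene, and 6 days of selection in 5 µg/ml puromycin. Each array came from its own transduction, and no untransduced cells were analysed here.

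In the integrated stress response, kinases that sense amino acid shortage, unfolded protein, double-stranded RNA or haem and mitochondrial stress phosphorylate the translation factor eIF2α. General translation slows, while the Atf4 message is translated more, because short reading frames upstream of its coding sequence are bypassed. ATF4 protein then pairs with C/EBP proteins on a composite DNA element and switches on genes for amino acid synthesis and uptake, tRNA charging and, under lasting stress, cell death. An array measures messages, so ATF4 protein and eIF2α phosphorylation were not measured.

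All 11 lung epithelial markers, among them Nkx2-1, Sftpb, Cdh1 and Krt18, were above the low-signal filter at a log2 value of 4.22. So were 6 of 7 fibroblast, 4 of 5 endothelial and 4 of 5 immune markers with a probe set. Passing the filter therefore does not identify a cell type. The median of the marker means was 10.00 for the epithelial list, against 5.61 (fibroblast), 4.63 (endothelial) and 4.60 (immune). Grhl2 (probe set 10423770) had log2 values of 7.43, 7.43 and 7.60 in Grhl2 shRNA cells, against 7.77 and 7.68 in control cells. The groups did not overlap, but the log2 fold change of −0.24 (SE 0.065) missed the threshold of a limma adjusted p under 0.05 (adjusted p = 0.082), and the measured depletion was small. Of the 11 epithelial genes, limma called 1 higher (Napsa, log2 fold change 0.36) and 1 lower (Sftpd, −0.33), and 7 lay below 0. Over all genes tested, 2.86% were called higher and 3.52% lower, and 50.9% lay above 0. Among markers of other cells, limma called 1 of 6 tested fibroblast genes higher (Dcn, log2 fold change 0.70). It also called 1 of 4 endothelial genes (Tek, 0.91) and 1 of 4 immune genes (Tyrobp, 0.28) higher. Tyrobp was near the filter, with means of 4.61 in Grhl2 shRNA cells and 4.33 in control cells. The other 5 fibroblast and 3 endothelial genes had log2 fold changes below 0, with the lowest at −0.068 (fibroblast) and −0.15 (endothelial). The second is Pecam1, whose mean of 4.217 in Grhl2 shRNA cells was below the filter of 4.224. It was kept only through its control mean of 4.366. Of the other 3 immune genes 2 were below 0, and none of these genes passed. On the linear scale the summed fibroblast signal was 448 to 532 in Grhl2 shRNA cells and 396 to 409 in control cells. The endothelial sum was 322 to 358 against 264 to 281, and the immune sum 170 to 177 against 165 to 173. The fibroblast and endothelial sums include Dcn and Tek, the only tested genes of their lists with values above 0. These sums therefore do not show a rise shared across either list. The part of such markers in the results below was not tested, and a change in the share of cells cannot be told apart from a change in RNA per cell in bulk samples.

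The C/EBP-ATF response element, the composite site that ATF4 and C/EBP proteins occupy, was looked for as TGATGNAA on either strand from 250 bases before to 50 bases after each annotated start (RefSeq, GRCm38.p6). It occurred in 4 of the 10 members, against 4.51% of the 27025 genes in the table, or in 4 of the members' 12 promoters, against 3.97% of all 32851 promoters. These 4 stretches of 30 bases are shown because they hold the known hallmark of the pathway, with the element in capitals.
Trib3, chr2:152344028-152344057, minus strand: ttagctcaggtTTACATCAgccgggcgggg
Atf3, chr1:191183425-191183454, minus strand: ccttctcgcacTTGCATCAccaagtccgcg
Asns, chr6:7693214-7693243, minus strand: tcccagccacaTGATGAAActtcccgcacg
Chac1, chr2:119351038-119351067, plus strand: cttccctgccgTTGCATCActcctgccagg
The element reads forward in Asns and in the reverse direction in the other 3. It begins 23 bases before the annotated start in Asns, 110 before it in Atf3, 193 before it in Chac1 and 14 bases after it in Trib3. The other 6 members (Atf4, Atf5, Ddit3, Ddit4, Psat1 and Phgdh) had no such letters in this window. No member had the full cAMP response element TGACGTCA, which 1.79% of promoters held, or the Grainyhead site AACCGGTT, which 0.146% held.

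Across the 10 members, Trib3 and Atf5 rose, none fell, and the other 8 did not pass the threshold. The 2 called members compare with 6.38% of all genes called, 2.86% higher and 3.52% lower. Of the members, 9 had a log2 fold change above 0, the exception being Ddit4, while 50.9% of all genes lay above 0. The 3 Grhl2 shRNA values lay above both control values in 7 members and below both in 0. Among all genes the groups were separated in 41.5%, with the knockdown higher in 21.0% and lower in 20.5%. Without a correction for multiple tests, 5 of the 10 had a limma p under 0.05, against 23.1% of all genes. The median log2 fold change of the members was 0.14, a small shift, against 0.0020 for all genes. Averaged over the 10 members, the log2 level was 9.78, 9.77 and 9.70 in Grhl2 shRNA cells and 9.58 and 9.60 in control cells.

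**Figure D1:**
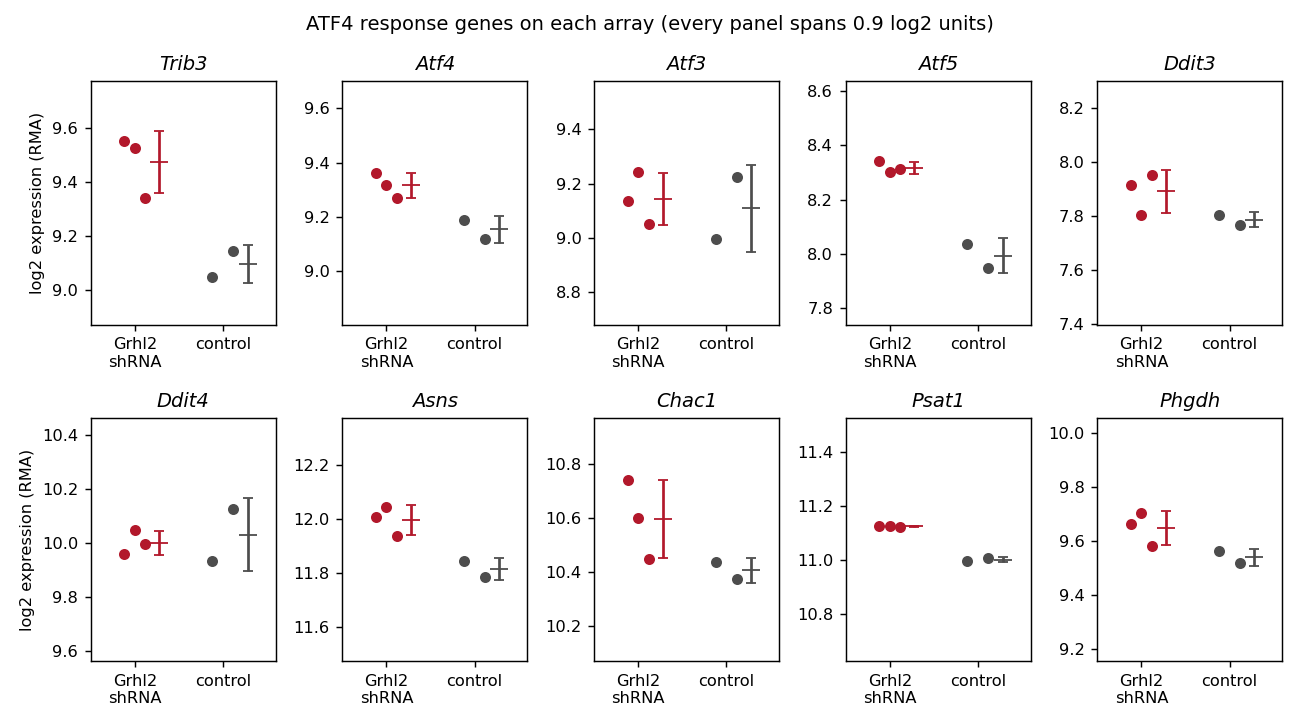
Log2 expression (RMA) of the 10 members on each array, Grhl2 shRNA (red, n = 3) left of control (grey, n = 2). Points are arrays and bars are mean ± SD; Trib3, Atf5, Atf4, Asns, Chac1, Psat1 and Phgdh have no overlap between groups, whereas Atf3, Ddit3 and Ddit4 do.

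Trib3 encodes a pseudokinase that ATF4 and CHOP induce and that in turn restrains ATF4 and the kinase AKT. Its log2 values (probe set 10488608) were 9.55, 9.53 and 9.34 in Grhl2 shRNA cells, against 9.05 and 9.15 in control cells. All knockdown arrays were above both controls, with the third nearest to them. Trib3 rose 1.30-fold (log2 fold change 0.38, SE 0.072, 95% confidence interval 0.21 to 0.55, limma adjusted p = 0.032), the largest change among the members. The change stayed between 0.33 and 0.44 whichever array was left out. The call did not hold without Grhl2 shRNA array 1 (adjusted p = 0.078), Grhl2 shRNA array 2 (0.097), control array 1 (0.167) or control array 2 (0.122) and held without Grhl2 shRNA array 3 (0.021).

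Of the 4 transcription factors, Atf5 rose, and Atf4, Atf3 and Ddit3 did not pass. Atf5 encodes a relative of ATF4 whose message has the same kind of upstream reading frames and which has been tied to mitochondrial protein stress. Its log2 values (10562905) were 8.34, 8.30 and 8.31 in Grhl2 shRNA cells, against 8.04 and 7.95 in control cells, which left a clear gap between tight groups. Atf5 rose 1.25-fold (log2 fold change 0.33, SE 0.046, 95% confidence interval 0.22 to 0.43, limma adjusted p = 0.014). Left-out arrays gave 0.28 to 0.37, and the call was lost without control array 1 (adjusted p = 0.057) or control array 2 (0.0998). The annotated span of Atf5 overlaps those of Nup62 and Il4i1b, and whether the probe set lies in the shared part is not known here.

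Atf4 itself (10425364) had log2 values of 9.36, 9.32 and 9.27 in Grhl2 shRNA cells, against 9.19 and 9.12 in control cells. The groups did not overlap, but the log2 fold change of 0.16 (SE 0.048, 95% confidence interval 0.049 to 0.28) did not pass (limma adjusted p = 0.095).

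Atf3, a stress-induced relative that mostly represses, had log2 values (10361091) of 9.13, 9.24 and 9.05 in Grhl2 shRNA cells and 8.99 and 9.22 in control cells. The controls alone spanned most of the knockdown range. The log2 fold change of 0.034 (SE 0.082, adjusted p = 0.86) came with a 95% confidence interval of −0.16 to 0.23. It turned to −0.016 without Grhl2 shRNA array 2 and to −0.080 without control array 1.

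Ddit3, which encodes CHOP, the factor linked to death under lasting stress, had log2 values (10366881) of 7.92, 7.80 and 7.95 in Grhl2 shRNA cells and 7.81 and 7.77 in control cells. Its second knockdown value lay just under the higher control. The log2 fold change was 0.11 (SE 0.055, 95% confidence interval −0.025 to 0.24, limma adjusted p = 0.31). The annotated span of Ddit3 overlaps those of Mbd6 and Mars1, and Mars1 was itself called higher (below).

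Ddit4, or REDD1, which holds back the growth kinase complex mTORC1, had log2 values (10369290) of 9.96, 10.05 and 10.00 in Grhl2 shRNA cells, inside the control values of 9.94 and 10.13. Its log2 fold change was −0.029 (SE 0.064, adjusted p = 0.84), with a 95% confidence interval of −0.18 to 0.12, and became 0.067 without control array 2.

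None of the 4 enzymes among the members passed, with values of 0.11 to 0.19. Asns, the asparagine synthetase and a classic ATF4 target, had log2 values (10543067) of 12.01, 12.05 and 11.94 in Grhl2 shRNA cells, against 11.84 and 11.79 in control cells. The groups were separated, with a log2 fold change of 0.18 (SE 0.049, 95% confidence interval 0.066 to 0.30, limma adjusted p = 0.077). Chac1, an enzyme that breaks down glutathione, had log2 values (10474972) of 10.74, 10.60 and 10.45 in Grhl2 shRNA cells, against 10.44 and 10.37 in control cells. The third knockdown value was only just above the higher control. The log2 fold change was 0.19 (SE 0.082, 95% confidence interval −0.0041 to 0.38, limma adjusted p = 0.23), and without Grhl2 shRNA array 1 it was 0.12.

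Psat1 and Phgdh catalyse neighbouring steps of serine synthesis, Phgdh being the entry enzyme. Psat1 (10466410) had log2 values of 11.12, 11.13 and 11.12 in Grhl2 shRNA cells, against 11.00 and 11.01 in control cells. Its replicates agreed closely, with SDs of 0.0022 in Grhl2 shRNA cells and 0.0081 in control cells, but limma draws such low variances toward the other genes. The log2 fold change was 0.12 (SE 0.039, 95% confidence interval 0.031 to 0.21, adjusted p = 0.115). Phgdh (10500529) had log2 values of 9.66, 9.70 and 9.58 in Grhl2 shRNA cells, against 9.56 and 9.52 in control cells. The groups were again just separated, with a log2 fold change of 0.11 (SE 0.050, 95% confidence interval −0.010 to 0.23, limma adjusted p = 0.25). A second probe set that the annotation assigns to both Phgdh and Gm6756 was not used.

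Knockdown array 3 was the lowest of the 3 Grhl2 shRNA arrays in 7 of the 10 members (Trib3, Atf4, Atf3, Asns, Chac1, Psat1 and Phgdh), against 37.1% of all genes. It was also the knockdown array with the highest Grhl2 signal. Whether these facts are linked was not tested.

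**Figure D2:**
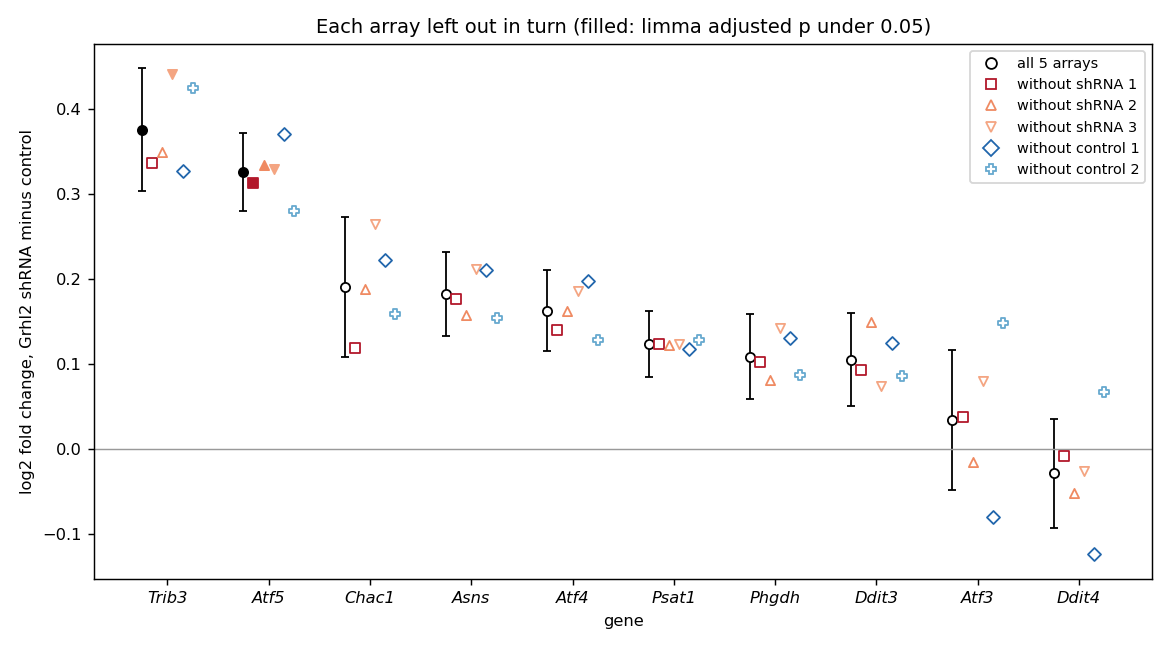
Log2 fold change (Grhl2 shRNA minus control) of each member with all 5 arrays (black circles, bars are the standard error) and with each array left out; filled symbols have a limma adjusted p under 0.05. Trib3 and Atf5 are the highest 2 in each of the settings drawn, while Atf3 and Ddit4 cross 0.

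The wider pathway was described through 10 lists of genes by role. Over their 114 distinct genes, 16 were called higher and 1 lower, against 2.86% and 3.52% of all genes. An unadjusted limma p under 0.05, counted below for lists with 0 calls, was reached by 23.1% of all genes. The number called higher over these lists was 5 with no filter, 30 with a filter at the 50th percentile, 37 with a trended robust prior, 0 with all probe sets tested together and 1 where variances were not moderated. All 17 kept their direction whichever array was left out, but 5, 4 and 10 of them stayed past the threshold without Grhl2 shRNA arrays 1, 2 and 3, and 0 without either control array, where their smallest limma adjusted p was 0.054 without control array 1 and 0.055 without control array 2.

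Upstream of ATF4, the messages of the 4 eIF2α kinases did not pass. Eif2ak3 (PERK, the sensor of unfolded protein) had a log2 fold change of −0.15 (limma adjusted p = 0.13), and Eif2ak2 (PKR, the sensor of double-stranded RNA, itself interferon-inducible) one of 0.13 (adjusted p = 0.24). Eif2ak1 (HRI) was at 0.024 and Eif2ak4 (GCN2, the sensor of uncharged tRNA) at −0.043. Both genes that direct phosphatase to eIF2α passed, but only Ppp1r15a did so under either choice of probe set. Ppp1r15a (GADD34, the stress-induced one; 10563338) had log2 values of 8.16, 8.19 and 8.11 in Grhl2 shRNA cells, against 7.90 and 7.95 in control cells, a log2 fold change of 0.23 (limma adjusted p = 0.033). Ppp1r15b (CReP, the constitutive one; 10349868) rose by 0.20 on its brightest probe set (limma adjusted p = 0.042), and over the mean of its probe sets the value was 0.093 (adjusted p = 0.24). These were the only 2 calls among 17 genes of eIF2 control, whose median was 0.048.

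Among 14 leucine zipper partners and stress cofactors, 3 rose, 0 fell and 11 did not pass, with a median of 0.052. Cebpb, a partner of ATF4 on its element, rose by 0.21 (10478890, limma adjusted p = 0.044). The partner Cebpg was at 0.16 (adjusted p = 0.081). Nupr1, a small chromatin protein of the stress response (10567995), had log2 values of 10.20, 10.22 and 10.09 in Grhl2 shRNA cells, against 9.83 and 9.85 in control cells, and rose by 0.33 (limma adjusted p = 0.018). Fosl1, an AP-1 subunit, rose by 0.35 (10460585, limma adjusted p = 0.0091). The AP-1 genes Jun, Junb and Jund lay at −0.19, −0.15 and −0.19 and did not pass (limma adjusted p = 0.18, 0.13 and 0.087).

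Relatives of the members in their gene families did not pass: 0 of 10 were called by limma, 3 had an unadjusted p under 0.05, and the median was 0.0056. Trib2 had the largest value, 0.25 (adjusted p = 0.12), which was 0.12 without control array 1 and 0.37 without control array 2, followed by Jdp2, a relative of Atf3, at 0.18 (adjusted p = 0.18).

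Genes of amino acid supply and tRNA charging were higher more often than lower. Of 12 genes of serine, glycine, one-carbon and proline synthesis, 3 rose, 0 fell and 9 did not pass, with a median of 0.15. Cth, which makes cysteine from cystathionine (10503023), had log2 values of 6.03, 6.18 and 5.90 in Grhl2 shRNA cells, against 5.42 and 5.58 in control cells. It rose 1.45-fold (log2 fold change 0.54, SE 0.087, limma adjusted p = 0.021), the largest change in any of these lists. Shmt1 (10386604), the cytosolic serine hydroxymethyltransferase, rose by 0.26 and Mthfd2 (10545672), the mitochondrial folate enzyme, by 0.22 (limma adjusted p = 0.020 and 0.031). Psph, the enzyme after Psat1 in serine synthesis, was at 0.29 (adjusted p = 0.061).

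All 12 tested genes of tRNA charging and export were higher on every Grhl2 shRNA array than on either control array, a separation that 21.0% of all genes showed. Of them 4 passed, all upward, a count that was 0 with no filter, no moderation or all probe sets together and 8 with a filter at the 50th percentile or a trended robust prior. Xpot (10372877), the exporter of tRNA from the nucleus, had log2 values of 10.55, 10.63 and 10.45 in Grhl2 shRNA cells, against 10.26 and 10.24 in control cells, and rose by 0.30 (limma adjusted p = 0.036). The synthetases Cars (10569458), Mars1 (10373157) and Eprs (10352514), for cysteine, methionine, and glutamate and proline, rose by 0.26, 0.25 and 0.22 (limma adjusted p = 0.026, 0.028 and 0.038). The list's values ran from 0.080 to 0.30 with a median of 0.18. Its mean log2 level was 10.25, 10.27 and 10.19 in Grhl2 shRNA cells and 10.09 and 10.02 in control cells.

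The 9 amino acid transporters tested, among them Slc7a3 with a control mean below the filter, had values above 0 with a median of 0.13, but limma called 0, and 4 had an unadjusted p under 0.05. Slc7a11, which imports cystine (10498024), was at 0.27 (adjusted p = 0.077), with 8.97, 9.03 and 9.03 in Grhl2 shRNA cells, against 8.86 and 8.62 in control cells. It was at 0.39 without control array 1 and 0.15 without control array 2. Slc7a3, an arginine and lysine carrier, had means of 4.42 in Grhl2 shRNA cells and 4.12 in control cells, the second below the low-signal filter of 4.22, so it was kept only through the knockdown arrays. Its value of 0.30 (adjusted p = 0.17) was 0.50 without control array 1 and 0.10 without control array 2.

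Of 11 other ATF4 targets, 4 rose, 0 fell and 7 did not pass, with a median of 0.17. Stc2, the secreted glycoprotein stanniocalcin 2 (10384961), had log2 values of 7.30, 7.23 and 7.13 in Grhl2 shRNA cells, against 6.74 and 6.94 in control cells, and rose by 0.38 (limma adjusted p = 0.034). Gadd45a (10545130), a growth arrest gene that p53 also drives, had 8.24, 8.25 and 8.25 in Grhl2 shRNA cells, against 7.88 and 7.87 in control cells, and rose by 0.37 (limma adjusted p = 0.0060). Vldlr (10462281), a lipoprotein receptor, rose by 0.27 and Fgf21 (10563344), a metabolic hormone, by 0.27 (limma adjusted p = 0.025 and 0.032).

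Among the called genes of the 10 role lists, those that held the response element in the window were Nupr1, Fgf21 and Vldlr, shown in the same form for comparison with the members.
Nupr1, chr7:126625562-126625591, minus strand: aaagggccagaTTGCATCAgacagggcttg
Fgf21, chr7:45615611-45615640, minus strand: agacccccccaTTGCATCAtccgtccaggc
Vldlr, chr19:27216809-27216838, plus strand: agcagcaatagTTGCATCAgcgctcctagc
These 3 carry the same 8 letters as Atf3 and Chac1. By list, the element stood in 5 of 9 tRNA charging genes with a promoter in the table, 3 of 10 other ATF4 targets, 2 of 6 transporters, 2 of 11 genes of serine to proline synthesis, 1 of 15 of eIF2 control, 1 of 13 partners and cofactors and 1 of 8 relatives. It stood in 0 of 12 genes of the other stress arms, 0 of 5 mitochondrial and 0 of 9 mTORC1 genes. Of the 5 tRNA charging genes with it, Gars, Iars, Tars and Yars were tested and not called. In the other lists Eif2s3x, Got1, Herpud1, Jdp2, Slc1a4 and Slc7a11 also held it and were not called. Aars and Pycr1 held it but had no single-symbol probe set and were not tested. Whether the element goes with a call was not tested. Promoters were at hand for 9 of the 13 listed tRNA charging genes, so a called gene may not have been searched. The genes of the other stress arms held the endoplasmic reticulum stress element in 5 cases (Calr, Creld2, Hsp90b1, Hspa5 and Syvn1), against 0.137% of all genes in the table and 0 of the members. It was looked for on either strand as CCAAT and CCACG with 9 free bases between them.

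The other arms of the unfolded protein response, which work through IRE1 and XBP1 and through ATF6, held a single call, a fall. Their 13 tested genes held 1 fall, 0 rises and 12 that did not pass, with a median of −0.055. These counts depended on the setting. A trended robust prior gave 3 rises and 2 falls, and a filter at the 50th percentile 1 rise and 1 fall. Without moderation of the variance there were 0 of either. Sdf2l1, an endoplasmic reticulum cofactor of chaperones (10438098), had log2 values of 8.97, 9.05 and 9.04 in Grhl2 shRNA cells, against 9.35 and 9.41 in control cells, and fell by 0.36 (limma adjusted p = 0.011). Hspa5, the chaperone BiP, was at −0.15 (adjusted p = 0.17), with 11.20, 11.35 and 11.28 in Grhl2 shRNA cells, against 11.47 and 11.38 in control cells. Dnajb9, a target of XBP1, was at 0.18 (adjusted p = 0.061).

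Mitochondrial stress genes all lay above 0 (7 of 7, median 0.069), but limma called 0 and 3 had an unadjusted p under 0.05. Hspa9 and Hspd1, the mitochondrial HSP70 and HSP60, came first by size, at 0.19 and 0.15 (limma adjusted p = 0.052 and 0.12). Of 9 tested genes of mTORC1 and its inhibitors, limma called 0, 2 had an unadjusted p under 0.05, and the median was 0.030. The mTORC1 inhibitors Deptor and Sesn3 were at 0.19 and −0.14 (limma adjusted p = 0.12 and 0.115).

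**Figure D3:**
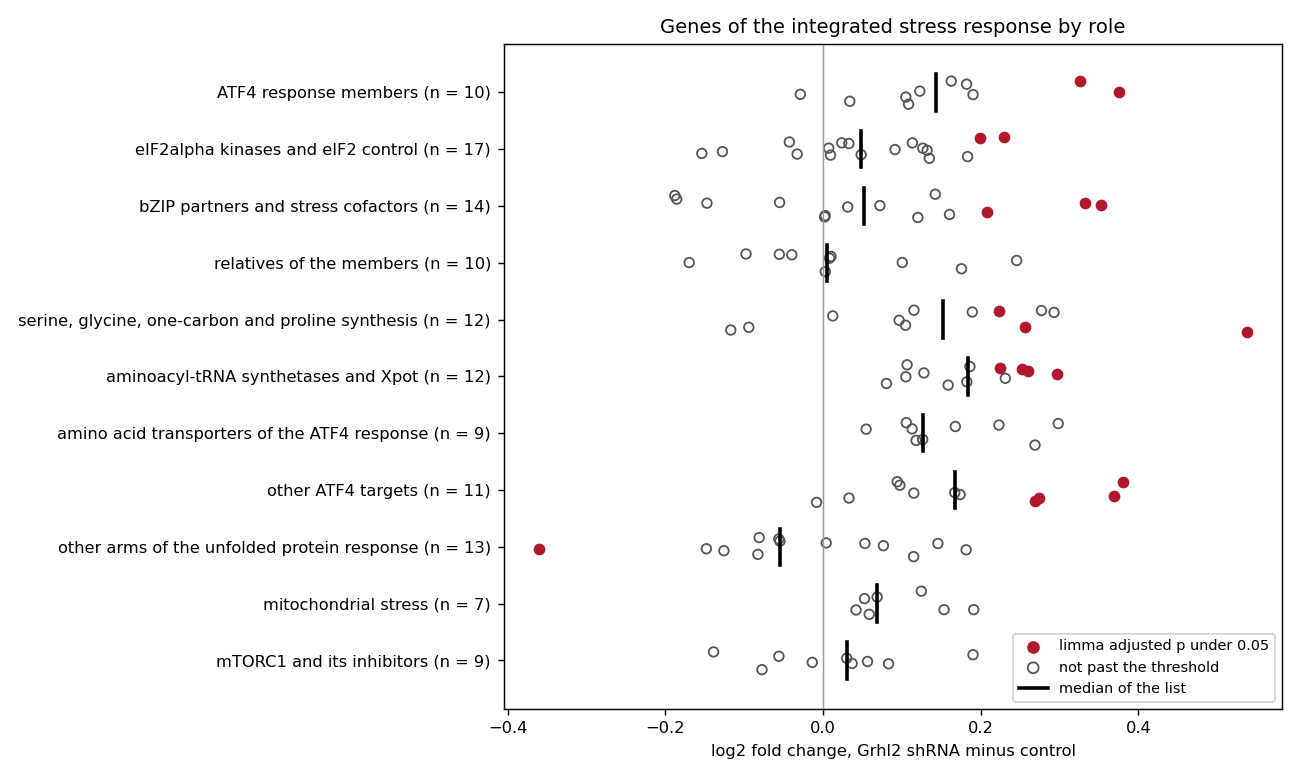
Log2 fold change (Grhl2 shRNA minus control) of every tested gene of the members and the 10 role lists; filled points have a limma adjusted p under 0.05, open points do not, and black bars are list medians. All points of the tRNA charging, transporter and mitochondrial lists lie right of 0, and the only called fall is Sdf2l1 among the other stress arms.

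The genes whose profile over the 5 arrays lay nearest to that of Trib3 were, in order, Hunk, Stc2, Nupr1, Il24 and Timm10. Likeness was the root mean square difference between log2 profiles centred on their own means, and ran from 0.033 for Hunk to 0.048 for Timm10 among 14979 genes. Since Stc2 and Nupr1 belong to the lists above, 2 of these 5 were listed genes of the stress response. The lists held 114 of the 14979 genes and were chosen with earlier results of these data known. Hunk, a protein kinase, had log2 values of 5.98, 6.00 and 5.85 in Grhl2 shRNA cells, against 5.53 and 5.57 in control cells. Il24, a cytokine of the IL-10 family, had 7.23, 7.19 and 7.14 in Grhl2 shRNA cells, against 6.80 and 6.88 in control cells. Timm10, a chaperone of mitochondrial protein import, had 7.45, 7.38 and 7.25 in Grhl2 shRNA cells, against 7.04 and 7.01 in control cells. With 5 arrays, such likeness mostly restates a rise of about the same size.

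**Figure D4:**
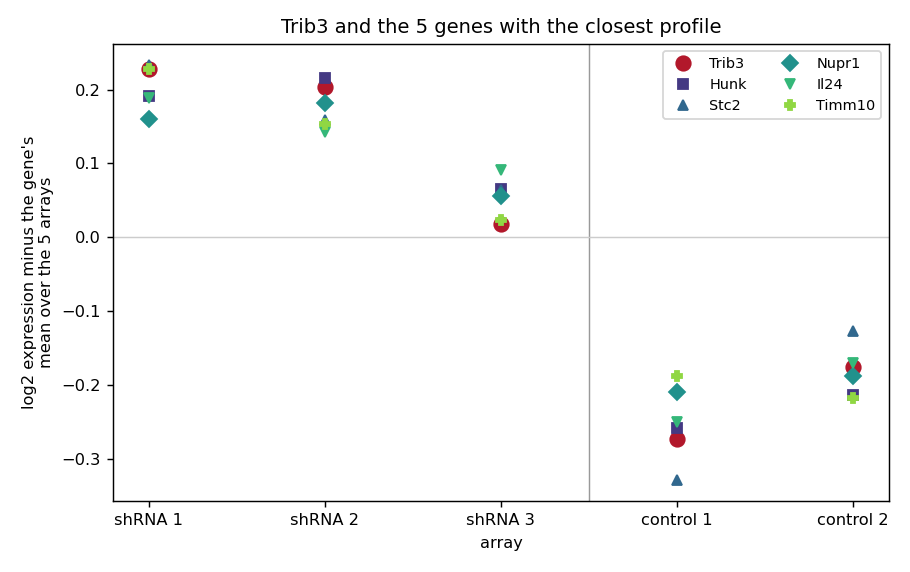
Log2 expression minus the gene's own mean on each of the 3 Grhl2 shRNA and 2 control arrays for Trib3 (red circles) and the 5 genes with the closest profile. In all 6 genes the knockdown arrays lie above 0 and the controls below, and knockdown array 3 is the lowest knockdown array.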

How the data were processed

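RNA of 5 MLE-15 cultures was measured on 1-colour whole-transcript arrays. The authors deposited log2 values; the submitters' processing notes name RMA and Affymetrix Expression Console, without versions. The log base follows from RMA and the range of values. Of 34760 probe sets, 21640 had 1 platform symbol, 1321 several and 11799 none, and 21553 were matched by Entrez ID to RefSeq GRCm38.p6. Single-symbol probe sets with a mean below 4.22 (25th percentile) were left out, and the brightest stood for each gene, giving 14979 genes. Groups were compared with limma 3.58.1 in R 4.3.3 (lmFit, eBayes, two-sided, Benjamini-Hochberg over all genes). The number of arrays limits precision (median SE 0.051), and an exact permutation test of 3 against 2 cannot go below p = 0.1. On simulated arrays with 200 of 14979 genes changed, 0% of log2 changes of 0.125, 12.8% of 0.25 and 87.2% of 0.5 were recovered. That share of changed genes was below the 6.38% called here, so the simulated cutoff was not that of these data. Named genes were the 10 members, Grhl2, up to 4 called genes per list (or the 2 largest values) and the 5 most like Trib3. Cebpg, Psph, the eIF2α kinases, the Jun genes, Hspa5 and the named cell markers were added after their values were seen. Members and lists were chosen with earlier results of these data known.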

Additional observations from a re-analysis of the deposited data

How the results depend on the processing

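Of 150 member values under 15 alternative settings, 129 kept direction and side of the threshold, 12 fell short, 6 newly passed and 3 reversed. The reversals were Atf3 without Grhl2 shRNA replicate 2 (−0.016) or control replicate 1 (−0.080) and Ddit4 without control replicate 2 (0.067); without 1 array Atf3 ranged from −0.080 to 0.15 and Ddit4 from −0.12 to 0.067. Members called higher numbered 2, and 1 with no filter, 5 with a 50th percentile filter or with a trended robust prior, 0 with no moderation of the variance, 0 with all probe sets tested together, 0 at an adjusted p under 0.01 and 4 under 0.1. Leaving out arrays gave 0 to 2 members called higher. Over all features, 429 were higher and 527 lower. These counts were 177 and 241 with no filter, 785 and 923 with a 50th percentile filter, 957 and 1077 with a trended robust prior, 5 and 4 with no moderation, 0 and 0 with all probe sets together, and 34 to 203 higher and 33 to 290 lower without 1 array. With the replicate number as a block, 1 member (Trib3, limma adjusted p = 0.047) was called, and 60 features were higher and 112 lower. Replicate number 3 had no control, so the block took up Grhl2 shRNA array 3. Its log2 fold changes were those without that array (tRNA charging median 0.21 in both). Replicate numbers were not taken to pair the samples in the main comparison. Deviations of same-numbered arrays correlated at 0.057 and 0.019. The deviations of the 2 controls mirror each other, so these values cannot settle whether the numbers pair the samples. Over the 10 role lists, the block left 1 gene called higher, against 16. The median of the members stayed between 0.12 and 0.16 in every setting. Counts at fixed values change with the number of features tested and the variance prior by construction. Apart from the array lost to the block, the cause of the other changes was not tested. The simulation recovered few changes of 0.25 or less, the size of most members, so a missing call does not show that a gene stayed unchanged.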
